A study of Mus musculus with 24 samples.

Results

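The sarcomeric myosin heavy chains are the motor proteins of the muscle thick filament. The 7 genes Myh3, Myh8, Myh2, Myh1, Myh4, Myh7 and Myh6 were followed by symbol among the 14693 genes of the count table. The 7 genes had a row each and passed the filter on low counts, which kept 12994 genes. The genes were taken by family membership, as sarcomeric members of the myosin heavy chain family.

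The cells were C2C12, a mouse myoblast line of wild-type genotype that leaves the cell cycle and fuses into myotubes when growth serum is replaced. They were kept in medium with 10% fetal bovine serum and then moved to 2% horse serum to differentiate. Transcript ends were sequenced at day 2 and day 6 in cells that had received linoleic acid (LA), ANGPTL4 or vehicle. The design asks which transcripts each addition changed at each time. The 6 groups held 4 libraries each. In the LA groups, 100 µM of the omega-6 fatty acid was present, carried on bovine serum albumin. In the ANGPTL4 groups, the recombinant mouse protein, a secreted inhibitor of lipoprotein lipase, was present at 10 ng/mL. The vehicle groups are labelled only as vehicle or control, so whether they held albumin is not given in the sources used here. The cell line is a single myoblast lineage in culture, without innervation.

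A myosin heavy chain carries the ATPase head that pulls on actin and the coiled-coil tail that packs into the filament. Mice express a series of these genes. Myh3 (embryonic) and Myh8 (perinatal) are used in developing and regenerating muscle, and adult fast fibres use Myh2 (IIa), Myh1 (IIx) or Myh4 (IIb). Slow fibres use Myh7, which is also the beta chain of the heart, and Myh6 is the alpha chain of the heart. C2C12 myotubes are known for expressing developmental isoforms first and adult fast isoforms later.

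In the RefSeq annotation of GRCm38.p6, Myh3, Myh2, Myh1, Myh4 and Myh8 followed each other in this order on chromosome 11, between Sco1 and Myh13. Myh6 and Myh7 were neighbours on chromosome 14, between Cmtm5 and Ngdn. The files' build was mm39, per the submitters' processing notes, so the coordinates below belong to GRCm38.p6 only. Promoter sequences from RefSeq, 250 bases before to 50 bases after the annotated start, matched 7 of 7 genes, with a pair of starts for Myh7. The promoters of Myh2, Myh1, Myh4 and Myh8 are shown because the transcripts of these 4 genes were all higher at day 6 than at day 2, as described further on. Capitals mark the runs of at least 9 bases that all 4 windows hold. All 4 windows are on the plus strand, and they are given in genome order as Myh2 at chr11:67170777-67171076, Myh1 at chr11:67199852-67200151, Myh4 at chr11:67237562-67237861 and Myh8 at chr11:67276874-67277173.
Myh2: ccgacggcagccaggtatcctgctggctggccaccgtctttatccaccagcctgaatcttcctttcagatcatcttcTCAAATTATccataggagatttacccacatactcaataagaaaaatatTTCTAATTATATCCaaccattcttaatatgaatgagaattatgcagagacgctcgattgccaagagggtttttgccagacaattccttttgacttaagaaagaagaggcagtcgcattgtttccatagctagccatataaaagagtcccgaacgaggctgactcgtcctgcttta
Myh1: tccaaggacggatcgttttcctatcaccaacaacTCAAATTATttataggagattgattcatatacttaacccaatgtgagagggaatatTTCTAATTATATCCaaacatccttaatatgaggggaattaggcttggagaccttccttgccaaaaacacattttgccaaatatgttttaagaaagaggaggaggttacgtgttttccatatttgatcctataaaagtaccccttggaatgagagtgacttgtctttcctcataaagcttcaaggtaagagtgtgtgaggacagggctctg
Myh4: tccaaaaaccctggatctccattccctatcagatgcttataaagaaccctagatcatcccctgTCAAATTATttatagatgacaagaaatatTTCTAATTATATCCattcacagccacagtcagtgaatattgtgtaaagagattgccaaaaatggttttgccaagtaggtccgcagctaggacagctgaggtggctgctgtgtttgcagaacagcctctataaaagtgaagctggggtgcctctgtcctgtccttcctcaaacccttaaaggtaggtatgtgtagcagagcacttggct
Myh8: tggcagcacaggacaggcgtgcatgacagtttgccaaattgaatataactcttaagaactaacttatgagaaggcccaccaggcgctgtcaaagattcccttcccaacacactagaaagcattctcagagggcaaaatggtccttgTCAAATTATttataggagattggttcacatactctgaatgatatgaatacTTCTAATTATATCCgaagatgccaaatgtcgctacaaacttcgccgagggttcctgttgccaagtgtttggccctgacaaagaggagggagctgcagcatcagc
Myh3, at chr11:67078050-67078349 on the plus strand, is shown for contrast because it lies in the same cluster and its transcript was not higher at day 6. Capitals in it mark the TATAAA element.
Myh3: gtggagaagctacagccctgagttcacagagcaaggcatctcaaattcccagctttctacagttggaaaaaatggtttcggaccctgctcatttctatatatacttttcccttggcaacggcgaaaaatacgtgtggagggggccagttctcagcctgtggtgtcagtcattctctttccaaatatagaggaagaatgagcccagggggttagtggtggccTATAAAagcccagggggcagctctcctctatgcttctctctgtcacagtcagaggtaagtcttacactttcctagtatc

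The shorter shared run, TCAAATTAT, began at position -173 in Myh2, -216 in Myh1, -187 in Myh4 and -104 in Myh8. Positions are counted from the annotated start, and no base has position 0. Both strands were searched. The run was present in 59 of 32851 promoter windows (0.18%), the 4 it was read from among them. The longer run, TTCTAATTATATCC, began at -125 in Myh2, -160 in Myh1, -158 in Myh4 and -54 in Myh8. It was present in 4 windows of 32851 (0.0122%), those of the 4 genes it was read from. The presence of both runs in these 4 windows is given by how the runs were found, and the 4 genes were grouped because their transcripts rose. Neither run was in the windows of Myh3, Myh7 or Myh6.

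Known elements were searched by their letters on both strands. The MEF2 element was matched in Myh1 at -211, Myh4 at -182 and Myh8 at -99, and in 3.19% of all windows. Each of these matches overlapped the end of the shorter shared run and held a TATAAA match on the opposite strand. The CArG box, bound by serum response factor, was matched in Myh4 alone, at -104, and in 1.63% of all windows. TATAAA was found on either strand in 6 of the 7 genes, all but Myh7, against 13.6% of all windows. It began at -29 in Myh3, at -208 and -32 in Myh1, and at -213, -179 and -31 in Myh4. In Myh6 it began at 2, in Myh2 at 11 and in Myh8 at -96 only. The E-box CANNTG, bound by MyoD and myogenin, was found in 5 of the 7 genes, against 72.3% of all windows. The letters CATTCC of the MCAT element, bound by TEAD factors, were found in 4 of the 7 genes, against 14.7% of all windows. A match describes letters and is no binding site by itself.

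**Figure D1:**
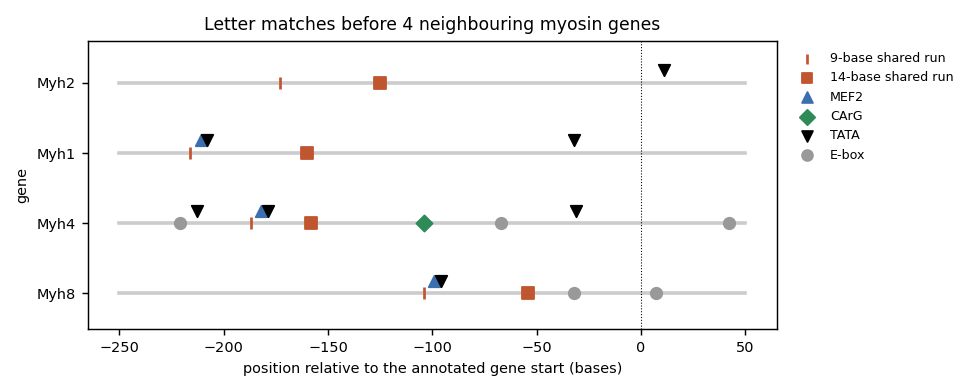
Positions of letter matches in the 300 bases around the annotated starts of Myh2, Myh1, Myh4 and Myh8 (x axis: position from the start, dotted line at 0, where no base lies; one grey line per gene). The longer shared run (squares, at its first base) began between -160 and -125 in Myh2, Myh1 and Myh4 and at -54 in Myh8.

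Library totals were 6100684 to 25049912 counts. The 7 myosin genes had between 134 counts (Myh6) and 112248 counts (Myh3) in a library, so sampling error was largest for Myh6 and Myh2. Values are CPM, the counts per 1000000 of a TMM-scaled library, and they serve to compare 1 gene between libraries. On the second principal component of all genes (9.46% of the variance), day 2 LA replicate 3 (-19.3) and day 6 ANGPTL4 replicate 1 (18.7) stood apart from their groups. Calls of the 7 genes that were lost without these 2 libraries are given with and without them. Nothing in the labels says that replicates came from separate cultures, so p-values measure only the spread between these libraries, which may be technical. In such bulk samples, fewer cells of a type and less RNA per cell cannot be told apart.

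The skeletal muscle markers Myog, Mymk, Ckm, Acta1 and Tnnt1, with Myh3 left out of the sum, had a summed level of 4176 to 4774 CPM with LA at day 6, 5752 to 6024 CPM with ANGPTL4 and 5651 to 6293 CPM with vehicle. Of the heart markers, Tnni3 averaged 1.19 CPM, Gata4 13.04 CPM and Myh6 26.999 CPM over all libraries. Nkx2-5 and Nppb did not pass the filter on low counts, and Nppa had no row under that symbol in the count table. Tnnt2, a heart marker also used by immature skeletal muscle, averaged 1138 CPM.

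The isoforms resemble each other at their transcript ends, where these libraries have their reads. Over the last 300 bases of the longest GENCODE M21 transcript, Myh7 and Myh6 were 72.8% identical with a shared run of 173 bases. Myh1 was 73.7% identical to Myh2 (shared run 121 bases) and 80.0% identical to Myh4 (shared run 83 bases). Myh3 shared no run over 17 bases with any of the other 6. Myh8 shared a run of 55 bases with Myh2 and with Myh1, 41 bases with Myh4, and 34 bases with Myh7 and with Myh6. Read length and the handling of reads with several matches are not given in the sources used here. How counts were split between Myh7 and Myh6, and among Myh8, Myh2, Myh1 and Myh4, is therefore uncertain.

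At day 6, cells given LA held less of 6 of the 7 myosin transcripts than cells given vehicle, with folds of 0.660 to 0.786. The developmental Myh3, the fast Myh2, Myh1 and Myh4, the slow Myh7 and the cardiac Myh6 fell. The perinatal Myh8 did not pass the test. Of the 12994 genes tested, 9.38% fell in this comparison. The median log2 fold change was -0.45 over the 7 genes and -0.0096 over all genes tested. The summed level of the 7 genes was 6488 to 7083 CPM with LA, 8745 to 9714 CPM with ANGPTL4 and 9087 to 9538 CPM with vehicle at this day.

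Myh3, the embryonic chain, had 3489, 3242, 3467 and 3522 CPM in the LA libraries of day 6, 4629, 4596, 4385 and 4306 CPM in the ANGPTL4 libraries and 4579.8, 4582, 4820.1 and 4817 CPM in the vehicle libraries. Each LA library lay below each of the other 8. Against vehicle it fell to 0.730 times the level (log2 fold change -0.45, SE 0.0610, adjusted p = 1.35e-06). Myh8, the perinatal chain, had 638, 572, 635 and 615 CPM with LA, 790.3, 891, 729 and 680.3 CPM with ANGPTL4 and 756, 840.3, 731 and 623 CPM with vehicle. The lowest vehicle library, at 623 CPM, lay within the LA range, and the difference was within the error (log2 fold change -0.26, SE 0.128, adjusted p = 0.187). It passed only when the compared groups alone were fitted (adjusted p = 0.0465).

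Among the adult fast chains, Myh2 (IIa) had 93.5, 71.2, 91.8 and 82.1 CPM with LA at day 6, 118, 132, 125 and 106 CPM with ANGPTL4 and 108, 116, 104 and 105 CPM with vehicle. The LA libraries lay below all others, and the level fell to 0.783 times that of vehicle (log2 fold change -0.35, SE 0.109, adjusted p = 0.0286). Myh1 (IIx) had 1768, 1596, 1719.8 and 1726 CPM with LA, 2620.1, 2706, 2516 and 2411 CPM with ANGPTL4 and 2620.2, 2536, 2492 and 2331 CPM with vehicle. The highest LA library, at 1768 CPM, was well under the lowest of the others, at 2331 CPM in vehicle, and the level fell to 0.682 times that of vehicle (log2 fold change -0.55, SE 0.0769, adjusted p = 5.59e-06). Myh4 (IIb) had 766, 692, 679 and 767 CPM with LA, 888, 887, 784 and 824 CPM with ANGPTL4 and 981, 970.2, 894 and 852 CPM with vehicle. Its LA libraries again lay below all others, with a smaller gap (log2 fold change -0.35, SE 0.1005, adjusted p = 0.0192).

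Myh7, the slow and cardiac beta chain, had 308, 295, 287 and 292 CPM with LA at day 6, 437, 467, 408 and 393 CPM with ANGPTL4 and 419.7, 462, 408 and 341 CPM with vehicle. The LA libraries were close together and below the other 8 (log2 fold change -0.46, SE 0.0745, adjusted p = 3.99e-05). Myh6, the cardiac alpha chain, had 20.1, 19.2, 16.4 and 15.8 CPM with LA, 33.98, 34.4, 27.6 and 24.9 CPM with ANGPTL4 and 30.9, 32.2, 26.8 and 18.99 CPM with vehicle. LA and vehicle overlapped in 1 vehicle library (log2 fold change -0.60, SE 0.202, adjusted p = 0.0467). For 5 of the 7 genes, namely Myh3, Myh2, Myh1, Myh4 and Myh7, every LA library lay below every vehicle library, as did 12.6% of all genes tested.

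These calls differed in how firmly they held. Those of Myh3, Myh1 and Myh7 held under 9 of 9 alternative settings and with each of the 8 compared libraries left out in turn. Myh2 lost its call without LA replicate 2 or 4 or vehicle replicate 1, 2 or 4 (adjusted p = 0.0569 to 0.125). Myh4 lost it without LA replicate 2 or 3 or vehicle replicate 1 or 2 (adjusted p = 0.0733 to 0.0784). Myh6 lost it in 7 of the 8 fits that left out a library, all but the one without vehicle replicate 4 (adjusted p = 0.0554 to 0.148). Myh6 also lost it without the 2 libraries that stood apart, with either other scaling and without a filter on low counts (adjusted p = 0.0503 to 0.0607).

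**Figure D2:**
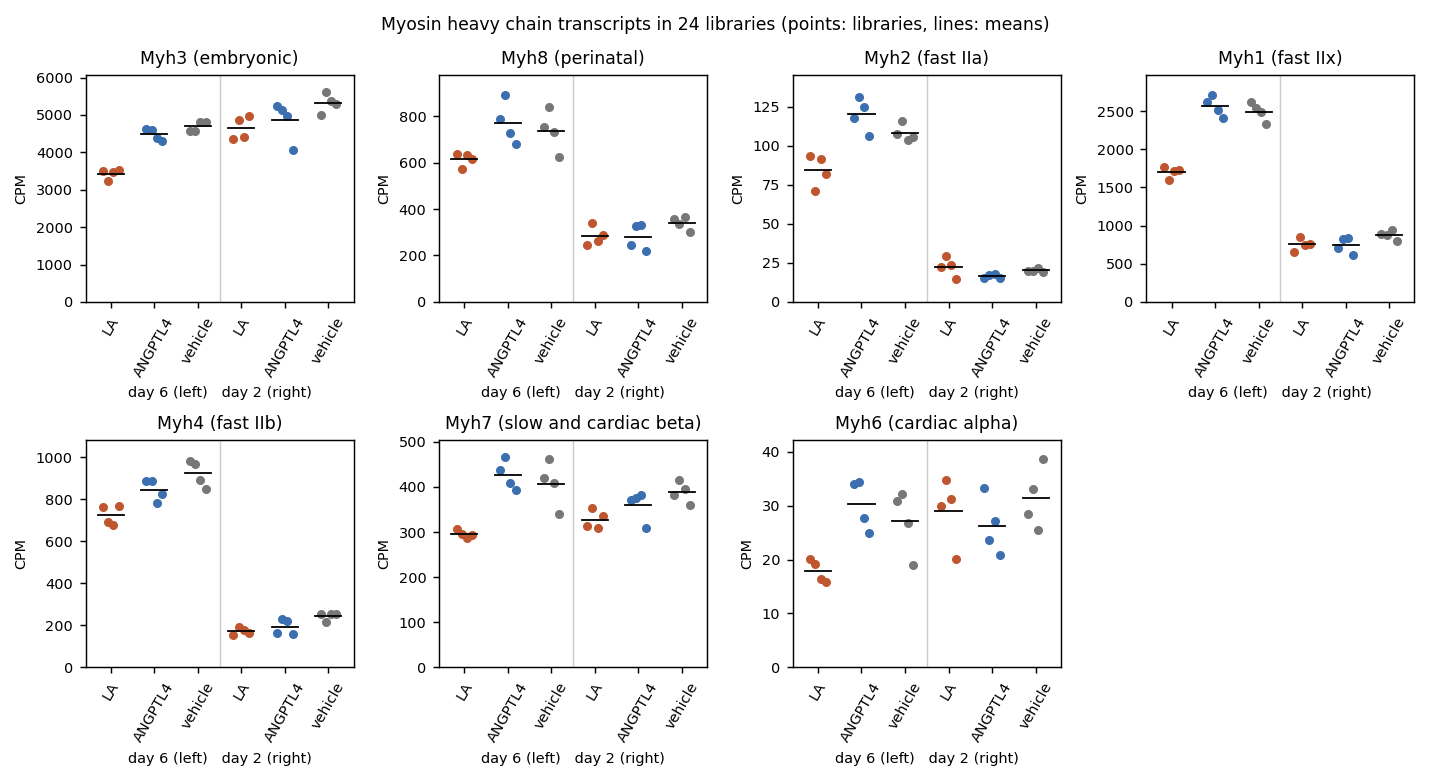
CPM of each of the 7 myosin heavy chain genes (y axis from 0) in 24 libraries, with day 6 left of the grey line and day 2 right of it, and LA, ANGPTL4 and vehicle in this order; points are libraries and lines are means of 4. At day 6 the LA libraries of Myh1 (1596 to 1768 CPM) lay below those of ANGPTL4 and vehicle, while Myh8 libraries of LA and vehicle overlapped.

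At day 2, LA lowered 3 of the 7 transcripts, namely Myh4, Myh3 and Myh7, where 6.82% of all genes tested fell. The folds were 0.705, 0.874 and 0.843. The other 4, Myh8, Myh2, Myh1 and Myh6, did not pass the test. The median log2 fold change was -0.22 over the 7 genes and 0.0054 over all genes.

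Myh3 had 4365, 4873, 4405 and 4967 CPM in the LA libraries of day 2, 5244, 5141, 4960.5 and 4073 CPM in the ANGPTL4 libraries and 5006, 5619, 5362 and 5303 CPM in the vehicle libraries. LA and vehicle libraries did not overlap, though the highest LA library was close under the lowest vehicle library (log2 fold change -0.19, SE 0.0608, adjusted p = 0.0289). Myh8 had 245, 340.1, 261 and 289.5 CPM with LA, 245, 325, 330.4 and 221 CPM with ANGPTL4 and 359, 334, 365 and 303 CPM with vehicle, and all 3 groups overlapped (LA against vehicle log2 fold change -0.26, SE 0.129, adjusted p = 0.187).

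Myh2 had 22.3, 29.5, 23.4 and 14.8 CPM with LA at day 2, 15.5, 17.5, 17.7 and 15.6 CPM with ANGPTL4 and 19.98, 20.1, 21.6 and 19.3 CPM with vehicle. Its LA libraries spread the most, from below to above the vehicle libraries (LA against vehicle log2 fold change 0.19, SE 0.132, adjusted p = 0.369). Without LA replicate 4, the lowest, Myh2 passed as higher with LA (log2 fold change 0.29, adjusted p = 0.0372). Myh1 had 656, 854, 748 and 763 CPM with LA, 712, 827, 835 and 616 CPM with ANGPTL4 and 887, 879.9, 942 and 803 CPM with vehicle. It was just short of the threshold with LA (log2 fold change -0.22, SE 0.0771, adjusted p = 0.0557), and 5 of 9 alternative settings put it past (adjusted p = 0.0303 to 0.0474). So did the fits without LA replicate 2 (adjusted p = 0.0232) or vehicle replicate 4 (adjusted p = 0.0499).

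Myh4 had 154, 193, 178 and 164 CPM with LA at day 2, 162, 229.8, 219.6 and 158 CPM with ANGPTL4 and 252, 216, 254 and 255 CPM with vehicle. The LA libraries all lay below the vehicle libraries, and Myh4 was the member with the lowest fold of the 7 at this day (log2 fold change -0.50, SE 0.103, adjusted p = 0.00404). This call held under 9 of 9 alternative settings and with each of the 8 compared libraries left out. Myh7 had 314, 352, 309 and 335 CPM with LA, 371, 376, 382 and 308 CPM with ANGPTL4 and 382, 416, 395 and 359 CPM with vehicle, with no overlap of LA and vehicle (log2 fold change -0.25, SE 0.0738, adjusted p = 0.0250). Myh6 had 29.9, 34.8, 31.3 and 20.04 CPM with LA, 33.3, 23.6, 27.2 and 20.8 CPM with ANGPTL4 and 28.5, 33.1, 25.5 and 38.7 CPM with vehicle, and the groups overlapped widely (LA against vehicle log2 fold change -0.10, SE 0.178, adjusted p = 0.767). Non-overlap of the kind seen for Myh3, Myh4 and Myh7 held for 7.7% of all genes tested.

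The day 2 calls of Myh3 and Myh7 rested on few libraries. Without day 2 LA replicate 3 and day 6 ANGPTL4 replicate 1, which stood apart, neither passed (adjusted p = 0.126 for Myh3 and 0.130 for Myh7), and Myh4 alone of the 7 did. Myh3 was also lost without LA replicate 1 or 3 or vehicle replicate 2, 3 or 4 (adjusted p = 0.0552 to 0.109). It was lost too when library totals alone scaled the counts (adjusted p = 0.0512) and when the compared groups alone were fitted (adjusted p = 0.0845). Myh7 was lost without LA replicate 1 or 3 or vehicle replicate 2 or 3 (adjusted p = 0.0534 to 0.108).

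The effect of LA differed between the days for 3 of the 7 genes. The interaction of LA with day was -0.54 ± 0.172 for Myh2 (log2 ± SE, adjusted p = 0.0311), -0.33 ± 0.109 for Myh1 (adjusted p = 0.0307) and -0.26 ± 0.0861 for Myh3 (adjusted p = 0.0312). In each the LA effect was lower at day 6. An interaction in this direction passed for 11% of all genes tested. The other 4 did not pass, with -0.22 ± 0.105 for Myh7 (adjusted p = 0.147), -0.50 ± 0.269 for Myh6 (adjusted p = 0.199), 0.16 ± 0.144 for Myh4 (adjusted p = 0.483) and -0.0011 ± 0.182 for Myh8 (adjusted p = 0.998).

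The 3 interactions were near the threshold. Without the 2 libraries that stood apart, Myh3 alone passed, while Myh2 (adjusted p = 0.0734) and Myh1 (adjusted p = 0.0704) did not. Myh3 was lost with DESeq2 size factors (adjusted p = 0.0546) and Myh2 with the compared groups alone (adjusted p = 0.0719). Of 16 fits that each left out a compared library, 5 kept Myh3, 7 kept Myh2 and 5 kept Myh1. Their interaction stayed below 0 in all 16, at -0.27 to -0.21 for Myh3, -0.63 to -0.38 for Myh2 and -0.38 to -0.25 for Myh1. The libraries whose absence ended the call of Myh3 were LA replicates 2 and 4 and vehicle replicates 1 and 3 of day 2, and LA replicates 2, 3 and 4 and vehicle replicates 1, 2, 3 and 4 of day 6 (adjusted p = 0.0508 to 0.120). For Myh2 they were LA replicates 2 and 3 and vehicle replicates 1, 2 and 4 of day 2, and LA replicates 2 and 4 and vehicle replicates 1 and 2 of day 6 (adjusted p = 0.0554 to 0.0724). For Myh1 they were LA replicates 2, 3 and 4 and vehicle replicates 1, 2 and 4 of day 2, and LA replicates 2, 3 and 4 and vehicle replicates 1 and 2 of day 6 (adjusted p = 0.0604 to 0.107). For Myh7, which did not pass, leaving out vehicle replicate 4 of day 6 gave an adjusted p of 0.0498.

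ANGPTL4 lowered 1 of the 7 transcripts at day 2 and changed none past the threshold at day 6. At day 2 the one was Myh4, at a fold of 0.788 (log2 fold change -0.34, SE 0.103, adjusted p = 0.0402), where 5.96% of all genes tested fell. Its ANGPTL4 libraries were split, with replicates 1 and 4 below every vehicle library and replicates 2 and 3 within the vehicle range. Myh1 was short of the threshold (log2 fold change -0.23, SE 0.0771, adjusted p = 0.0540). The others at day 2 were -0.13 ± 0.0608 for Myh3, -0.28 ± 0.129 for Myh8, -0.29 ± 0.138 for Myh2, -0.11 ± 0.0737 for Myh7 and -0.25 ± 0.180 for Myh6 (log2 ± SE, adjusted p = 0.161 to 0.394). For Myh2 alone, every ANGPTL4 library lay below every vehicle library, as did 7.9% of all genes tested.

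The Myh4 call at day 2 was lost without ANGPTL4 replicate 1 or 4 or vehicle replicate 1, 3 or 4 (adjusted p = 0.06998 to 0.114). It was also lost with library totals alone (adjusted p = 0.0535) and with the compared groups alone, where Myh2 passed instead (adjusted p = 0.152 for Myh4 and 0.0422 for Myh2). Myh1 passed without ANGPTL4 replicate 2 or 3 (adjusted p = 0.0294 and 0.0260). LA and ANGPTL4 were set against the same vehicle libraries at each day, so that likeness between their effects is shared in part by construction.

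At day 6, log2 fold changes with ANGPTL4 were -0.069 ± 0.0609 for Myh3, 0.067 ± 0.128 for Myh8, 0.15 ± 0.109 for Myh2, 0.039 ± 0.0767 for Myh1, -0.13 ± 0.101 for Myh4, 0.064 ± 0.0744 for Myh7 and 0.13 ± 0.199 for Myh6 (± SE). In edgeR's quasi-likelihood test 0 of the 7 passed, 0 had an unadjusted p under 0.05, and DESeq2 passed 0 as well. Of all genes tested, 0.0231% passed in either direction, and 1513 of the 12994 had an unadjusted p under 0.05. The interaction of ANGPTL4 with day was above 0 for each of the 7 genes, at 0.063 (Myh3) to 0.44 (Myh2), but 0 of the 7 passed where 0.277% of all genes did. An unadjusted p under 0.05 was found for 2 of the 7 and for 2415 of the 12994 genes tested. DESeq2 passed 0 of the 7 in this interaction. Fitting the compared groups alone passed Myh2 (adjusted p = 0.0405).

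**Figure D3:**
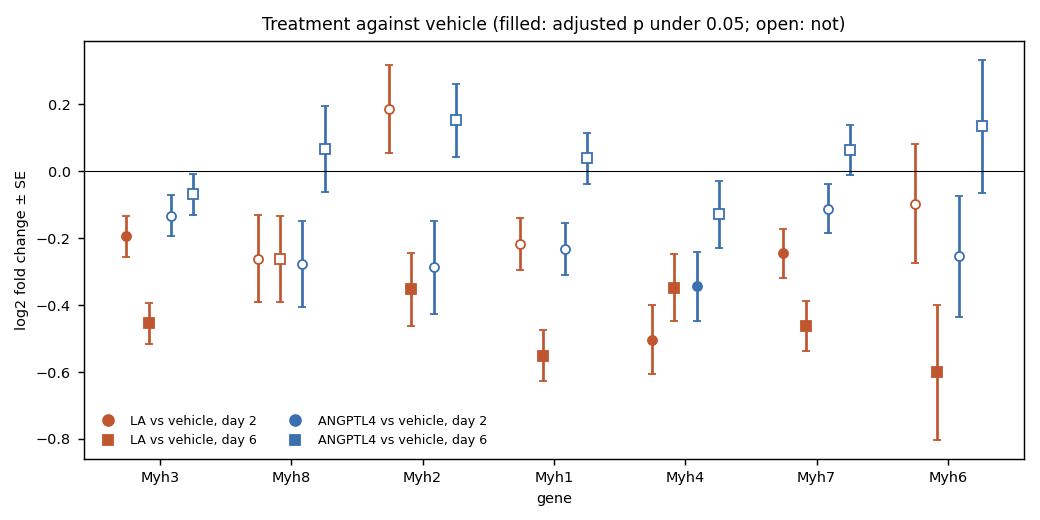
Log2 fold change against vehicle (y axis, bars ± SE) of each myosin heavy chain gene for LA (orange) and ANGPTL4 (blue) at day 2 (circles) and day 6 (squares); filled symbols have an adjusted p under 0.05. At day 6, 6 of 7 LA values are filled and lie between -0.60 and -0.35, while 0 of 7 ANGPTL4 values are filled and they lie between -0.13 and 0.15.

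The treatments were also compared with each other. At day 6, LA libraries held less than ANGPTL4 libraries of Myh3 (log2 fold change -0.38, SE 0.0610, adjusted p = 2.68e-05), Myh2 (log2 fold change -0.50, SE 0.111, adjusted p = 0.00290), Myh1 (log2 fold change -0.59, SE 0.0771, adjusted p = 3.27e-06), Myh7 (log2 fold change -0.53, SE 0.0750, adjusted p = 1.05e-05) and Myh6 (log2 fold change -0.73, SE 0.209, adjusted p = 0.0223). These were 5 of the 7, where 7.32% of all genes tested fell. Myh8 (log2 fold change -0.33, SE 0.128, adjusted p = 0.102) and Myh4 (log2 fold change -0.22, SE 0.101, adjusted p = 0.171) did not pass, and both did when the compared groups alone were fitted (adjusted p = 0.00383 and 0.00477). In all 7 genes every LA library lay below every ANGPTL4 library, as in 10.4% of all genes tested. Myh6 was lost without ANGPTL4 replicate 1 or 2 or LA replicate 3 or 4 (adjusted p = 0.0550 to 0.0821), and without the 2 libraries that stood apart (adjusted p = 0.0676), while Myh3, Myh2, Myh1 and Myh7 passed without them too.

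At day 2, 0 of the 7 genes differed between LA and ANGPTL4 in edgeR's quasi-likelihood test, where 0.0924% of all genes did. Of the 7, 1 gene, Myh2, had an unadjusted p under 0.05, as did 1607 of the 12994 genes tested. Myh2 stood at 0.47 ± 0.130 (log2 ± SE, adjusted p = 0.139), higher with LA in 12 of 16 pairs of libraries. DESeq2 passed it (adjusted p = 0.0379), and so did edgeR without LA replicate 4 (adjusted p = 5.09e-04). The other 6 were between -0.16 (Myh4) and 0.16 (Myh6) on the log2 scale.

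At day 6 against day 2, the fast and perinatal genes rose in every treatment, and the embryonic gene did not. With vehicle, 4 of the 7 rose, Myh2, Myh4, Myh1 and Myh8, and Myh3 fell, where 25.2% of all genes tested rose and 20.5% fell. With LA the same 4 rose and Myh3 and Myh6 fell, where 23.1% of all genes rose and 20.7% fell. With ANGPTL4 the same 4 and Myh7 rose and none fell, where 22.4% rose and 19.8% fell.

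Myh2 averaged 108 ± 5.24 CPM at day 6 and 20.2 ± 0.944 CPM at day 2 with vehicle (mean ± SD, n = 4 each), a fold of 5.35 (log2 fold change 2.42, SE 0.124, adjusted p = 6.22e-13). The fold was 3.68 with LA (log2 fold change 1.88, SE 0.118, adjusted p = 2.30e-11) and 7.25 with ANGPTL4 (log2 fold change 2.86, SE 0.124, adjusted p = 2.84e-14). No library of day 6 came near one of day 2 in this gene. Myh4 averaged 924 ± 62.02 CPM at day 6 and 244 ± 19.1 CPM at day 2 with vehicle (log2 fold change 1.92, SE 0.105, adjusted p = 2.52e-12). Its fold was 4.22 with LA, 4.39 with ANGPTL4 and 3.79 with vehicle, so that the IIb gene rose with LA as well although its level with LA stayed under that of vehicle on both days.

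Myh1 averaged 2495 ± 122 CPM at day 6 and 878 ± 57.1 CPM at day 2 with vehicle (log2 fold change 1.51, SE 0.0785, adjusted p = 7.93e-15). Its log2 fold change was 1.17 ± 0.0779 with LA and 1.78 ± 0.0791 with ANGPTL4 (± SE). Myh8 averaged 737 ± 89.6 CPM at day 6 and 340.2 ± 28.1 CPM at day 2 with vehicle (log2 fold change 1.12, SE 0.130, adjusted p = 8.72e-07), and its log2 fold change was 1.12 ± 0.130 with LA and 1.46 ± 0.131 with ANGPTL4 (± SE). For Myh2, Myh4, Myh1 and Myh8, every day 6 library lay above every day 2 library in all 3 treatments. That held for 22.2% of all genes tested with vehicle, 20.9% with LA and 20.3% with ANGPTL4. The 12 calls held under all 9 alternative settings and with each compared library left out.

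Myh3 fell with LA to 3430.0 ± 127 CPM at day 6, against 4652 ± 311 CPM at day 2 (log2 fold change -0.44, SE 0.0610, adjusted p = 5.50e-07). With vehicle it averaged 4699.7 ± 137 CPM at day 6 and 5323 ± 252 CPM at day 2 (log2 fold change -0.18, SE 0.0609, adjusted p = 0.0162). With ANGPTL4 it averaged 4479 ± 158 CPM at day 6 and 4855 ± 534 CPM at day 2, within the error (log2 fold change -0.12, SE 0.0609, adjusted p = 0.126). The ANGPTL4 value turned on its replicate 4 of day 2, the lowest at 4073 CPM, without which it passed (log2 fold change -0.21, adjusted p = 0.00273), as it did with library totals alone (adjusted p = 0.0121). From lowest to highest, the 6 group means of Myh3 were those of LA at day 6, ANGPTL4 at day 6, LA at day 2, vehicle at day 6, ANGPTL4 at day 2 and vehicle at day 2. The libraries of LA at day 6 lay below all others, and each later neighbour in this order overlapped the one before it.

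Myh7 averaged 426 ± 32.98 CPM at day 6 and 359 ± 34.2 CPM at day 2 with ANGPTL4 and rose (log2 fold change 0.25, SE 0.0742, adjusted p = 0.00844). That call was lost without ANGPTL4 replicate 4 of day 2 (adjusted p = 0.0705) or replicate 2 of day 6 (adjusted p = 0.0540), and with library totals alone (adjusted p = 0.0513). With LA it averaged 296 ± 8.72 CPM at day 6 and 328 ± 19.9 CPM at day 2 (log2 fold change -0.15, SE 0.0742, adjusted p = 0.110), and with vehicle 407 ± 50.2 CPM at day 6 and 388 ± 23.9 CPM at day 2 (log2 fold change 0.07, SE 0.0740, adjusted p = 0.461). Its group means ran from LA at day 6 through LA, ANGPTL4 and vehicle at day 2 to vehicle and ANGPTL4 at day 6, and only LA at day 6 did not overlap its neighbour. Fitting the compared groups alone passed the fall with LA (adjusted p = 0.0181).

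Myh6 fell with LA to 17.9 ± 2.09 CPM at day 6, against 29.03 ± 6.33 CPM at day 2 (log2 fold change -0.71, SE 0.192, adjusted p = 0.00540). With ANGPTL4 it averaged 30.2 ± 4.72 CPM at day 6 and 26.2 ± 5.37 CPM at day 2 (log2 fold change 0.18, SE 0.192, adjusted p = 0.486), and with vehicle 27.2 ± 5.96 CPM at day 6 and 31.4 ± 5.76 CPM at day 2 (log2 fold change -0.21, SE 0.187, adjusted p = 0.382). From lowest to highest, its group means were those of LA at day 6, ANGPTL4 at day 2, vehicle at day 6, LA at day 2, ANGPTL4 at day 6 and vehicle at day 2. The libraries of LA at day 6 lay below those of ANGPTL4 at day 2 but overlapped the next 2 groups, and all later neighbours overlapped.

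The make-up of the summed myosin counts differed by day in every treatment. Shares are of transcript-end counts and say nothing of protein. Myh3 held 49.9 ± 0.452% of the summed counts with LA at day 6 and 74.5 ± 1.31% at day 2 (mean ± SD, n = 4 each). With ANGPTL4 it held 48.5 ± 0.837% at day 6 and 74.97 ± 1.76% at day 2, and with vehicle 50.04 ± 2.36% at day 6 and 73.7 ± 1.36% at day 2. Every day 6 library had a lower embryonic share than every day 2 library. Myh1 held 24.8 ± 0.204% with LA, 27.7 ± 0.241% with ANGPTL4 and 26.5 ± 0.810% with vehicle at day 6. At day 2 it held 12.1 ± 0.7004% with LA, 11.5 ± 0.793% with ANGPTL4 and 12.2 ± 0.747% with vehicle. The day 6 LA libraries of Myh1, at 24.6 to 24.96%, lay below those of ANGPTL4, at 27.5 to 28.03%, and of vehicle, at 25.6 to 27.6%.

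Myh4 held 10.6 ± 0.492% of the summed counts with LA, 9.15 ± 0.305% with ANGPTL4 and 9.83 ± 0.496% with vehicle at day 6, against 2.76 ± 0.222% with LA, 2.97 ± 0.422% with ANGPTL4 and 3.39 ± 0.356% with vehicle at day 2. Myh8 held 8.95 ± 0.203% with LA, 8.34 ± 0.593% with ANGPTL4 and 7.83 ± 0.804% with vehicle at day 6, against 4.54 ± 0.381% with LA, 4.32 ± 0.577% with ANGPTL4 and 4.71 ± 0.421% with vehicle at day 2. The day 6 shares of Myh4 and Myh8 lay above those of day 2 in all libraries. Myh7 kept between 4.31 and 5.55% on average in the 6 groups, Myh2 held 1.15 to 1.30% at day 6 and 0.257 to 0.362% at day 2, and Myh6 held 0.260 to 0.468% in all 6. Together the 7 genes took 0.687 ± 0.0231% of all counts with LA, 0.899 ± 0.0388% with ANGPTL4 and 0.920 ± 0.0205% with vehicle at day 6. At day 2 they took 0.638 ± 0.0437% with LA, 0.661 ± 0.0716% with ANGPTL4 and 0.725 ± 0.0317% with vehicle.

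**Figure D4:**
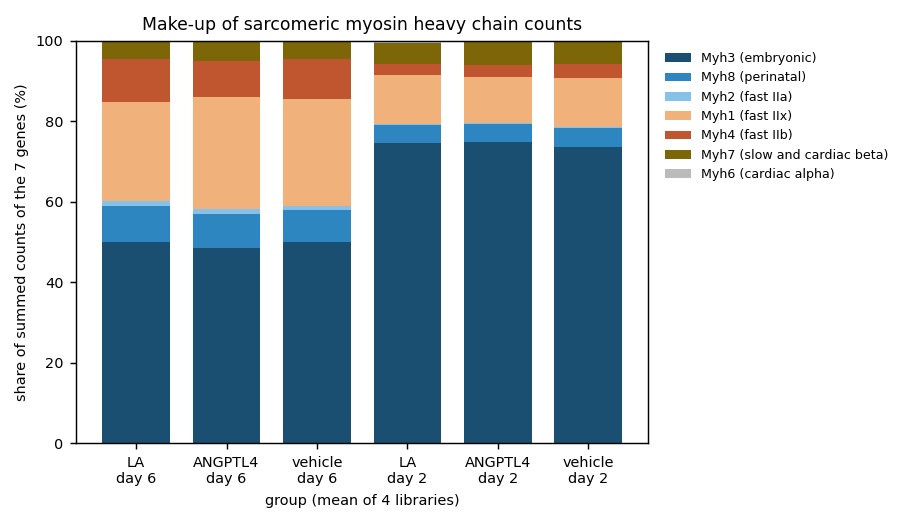
Share of each gene in the summed counts of the 7 sarcomeric myosin heavy chain genes (y axis, %, stacked to 100), as means of 4 libraries in each group, day 6 left of day 2. Myh3 holds 48.5 to 50.04% at day 6 and 73.7 to 74.97% at day 2, and Myh1 holds 24.8 to 27.7% at day 6 and 11.5 to 12.2% at day 2.

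A ratio of 2 genes within a library does not depend on how libraries are scaled. The log2 ratio of each of the other 6 genes to Myh3 was compared by a 2-sided exact permutation test in 42 comparisons, each of 4 libraries against 4, where the smallest p is 0.0286. Against Myh3, the ratio at day 6 exceeded that at day 2 for Myh2 by 2.38 with LA, 2.97 with ANGPTL4 and 2.59 with vehicle. For Myh4 it did so by 2.52 with LA, 2.26 with ANGPTL4 and 2.099 with vehicle. The difference was 1.62 with LA, 1.90 with ANGPTL4 and 1.69 with vehicle for Myh1, and 1.56 with LA, 1.59 with ANGPTL4 and 1.29 with vehicle for Myh8. For Myh7 it was 0.29 with LA and 0.36 with ANGPTL4. Each of these 14 had the smallest exact p the design allows, 0.0286, and an adjusted p of 0.0857 over the 42, so they fail the correction. This smallest p can pass the correction only if most of the 42 comparisons reach it. The failure therefore says nothing of the size of these differences. With vehicle the Myh7 difference was 0.24 (exact p = 0.114). For Myh6 the differences were -0.24 with LA, 0.32 with ANGPTL4 and -0.039 with vehicle (exact p = 0.257, 0.0857 and 0.8).

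Between treatment and vehicle, none of the 24 ratios to Myh3 had an exact permutation p under 0.05. At day 6 the LA-minus-vehicle differences in log2 ratio were 0.20 for Myh8, 0.094 for Myh2, -0.10 for Myh1, 0.11 for Myh4, -0.00018 for Myh7 and -0.13 for Myh6. The lowest p of the 24 was 0.0571 (adjusted 0.160), for Myh2 with ANGPTL4 at day 6, a difference of 0.22. At 4 libraries against 4, a p above the threshold does not show that the isoforms moved alike.

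Genes that work with myosin in the sarcomere were counted from lists of known roles. Thick filament partners are the light chains, binding proteins and M-band or giant scaffold proteins that hold or tune myosin. With LA at day 6, where 9.38% of all genes tested fell, 10 of 14 tested partners fell and 0 rose. The median log2 fold change was -0.43 over the partners and -0.0096 over all genes. Those that fell included Myom3 (an M-band myomesin, log2 fold change -0.57, SE 0.0612, adjusted p = 2.74e-08) and Obsl1 (a cytoskeletal linker, log2 fold change -0.55, SE 0.0760, adjusted p = 5.85e-06). The list of fast fibre genes and that of slow fibre genes share members with the partners, namely Myl1, Mylpf and Mybpc2 for fast and Myl2, Myl3 and Mybpc1 for slow. Of the fast list 9 of 10 fell and 0 rose (median -0.37), with Pvalb (parvalbumin, a calcium buffer, -1.31 ± 0.262), Atp2a1 (the fast calcium pump, -0.67 ± 0.0704) and Casq1 (calsequestrin, -0.47 ± 0.0988) the lowest (log2 ± SE). Of the slow list 7 of 9 fell and 0 rose (median -0.35), with Myl2 (the slow regulatory light chain, -0.54 ± 0.111), Atp2a2 (the slow calcium pump, -0.45 ± 0.0584) and Tnni1 (slow troponin I, -0.41 ± 0.0641) the lowest.

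Of 13 genes of myosin folding and turnover, 6 fell and 0 rose with LA at day 6, with a median of -0.074, where 9.38% of all genes fell. Those that fell included Unc45b, the muscle chaperone that folds myosin heads (log2 fold change -0.49, SE 0.0588, adjusted p = 1.93e-07), Cryab, a small heat shock protein (log2 fold change -0.39, SE 0.0567, adjusted p = 4.09e-06), and Trim54, a ubiquitin ligase of the sarcomere (log2 fold change -0.26, SE 0.0642, adjusted p = 0.00330). Unc45b averaged 89.2 ± 4.15 CPM with LA, 127 ± 2.35 CPM with ANGPTL4 and 126 ± 8.68 CPM with vehicle. Without the 2 libraries that stood apart, 5 of the 13 folding and turnover genes fell with LA, where 9.11% of all genes did. With ANGPTL4 at day 6, 0 genes of these 4 lists passed in edgeR, where 0.0231% of all genes did. An unadjusted p under 0.05 was found for 5 of 14 partners, 4 of 10 fast, 3 of 9 slow and 1 of 13 folding genes. It was found for 1513 of the 12994 genes tested.

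Of 30 tested regulators of myosin genes, 9 fell and 2 rose with LA at day 6 (median -0.069), where 9.38% of all genes fell and 7.83% rose. The risen share of the regulators was thus near that of all genes. Mafa, a large Maf factor, fell (log2 fold change -0.60, SE 0.107, adjusted p = 1.36e-04), and Eya1, a transcriptional co-activator (log2 fold change 0.56, SE 0.131, adjusted p = 0.00332), and Myf5, an early myogenic factor (log2 fold change 0.40, SE 0.119, adjusted p = 0.0179), rose. Mef2c, a late myogenic factor, averaged 622 ± 36.5 CPM with LA, 829.7 ± 18.6 CPM with ANGPTL4 and 783 ± 17.1 CPM with vehicle and fell with LA (log2 fold change -0.33, SE 0.0723, adjusted p = 0.00141). Myod1 (-0.31 ± 0.0547, adjusted p = 7.55e-05) and Myog (-0.24 ± 0.0644, adjusted p = 0.00723), which drive commitment and differentiation, also fell.

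At day 2, with LA, 1 of 14 thick filament partners rose (Mylpf, a fast regulatory light chain, 0.23 ± 0.0664) and 1 fell (Mybpc1, slow myosin-binding protein C, -0.33 ± 0.0970), shares close to the 8.27% of all genes that rose and the 6.82% that fell. Of 30 regulators 7 fell, Mef2c among them (log2 fold change -0.23, SE 0.0739, adjusted p = 0.0321). Without the 2 libraries that stood apart, an alternative added after the data were seen, 0 of the 14 partners and 1 of the 30 regulators passed, where 2.92% of all genes rose and 1.59% fell. Mylpf (adjusted p = 0.142), Mybpc1 (adjusted p = 0.0937) and Mef2c (adjusted p = 0.168) were all lost. With ANGPTL4 at day 2, where 3.86% of all genes rose and 5.96% fell, Ttn, the giant scaffold titin, fell (log2 fold change -1.02, SE 0.223, adjusted p = 0.0103), Mef2c fell (log2 fold change -0.24, SE 0.0739, adjusted p = 0.0381) and Myod1 rose (log2 fold change 0.22, SE 0.0528, adjusted p = 0.00945). Ttn spread widest among the LA libraries, at 11350.0 ± 3322 CPM with LA, 7827 ± 672 CPM with ANGPTL4 and 15912 ± 1662 CPM with vehicle. For day 6 against day 2 with vehicle, 13 of 14 partners, 10 of 10 fast and 9 of 9 slow genes rose and 0 fell, and Myl2 stood at 3.71 ± 0.160 (log2 ± SE). Without the 2 libraries that stood apart, 1 of the 14 partners, Ttn, passed as lower there (adjusted p = 0.0267). Of 30 regulators 10 rose and 10 fell there, where 25.2% of all genes rose and 20.5% fell. Without the 2 libraries that stood apart, 9 of the 30 rose and 11 fell, where 23.9% of all genes rose and 22.3% fell. Mef2c rose (log2 fold change 1.69, SE 0.0748, adjusted p = 1.14e-16), Myod1 fell (log2 fold change -0.18, SE 0.0538, adjusted p = 0.00589) and Myog stood at -0.064 ± 0.0642 (adjusted p = 0.435).

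**Figure D5:**
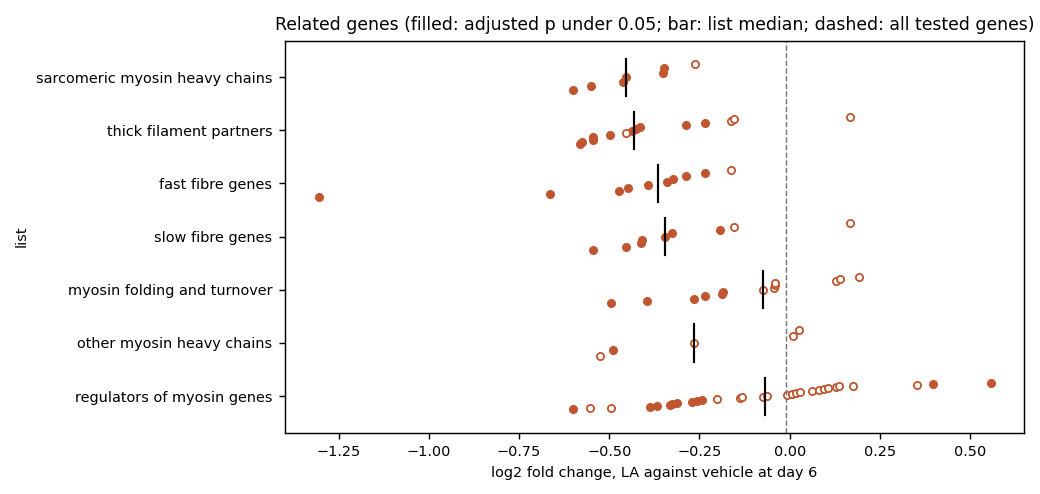
Log2 fold change of LA against vehicle at day 6 (x axis) for the 7 sarcomeric myosin heavy chain genes and 6 lists of related genes (rows); points are genes, filled at an adjusted p under 0.05, bars are list medians and the dashed line is the median of all genes tested (-0.0096). The medians of the myosin, thick filament, fast and slow rows lie between -0.45 and -0.35.

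Genes known as markers of other cell types moved in the same comparison, in a culture of a single myoblast line. With LA at day 6, 7 of 9 tested fibroblast markers rose and 0 fell (median 0.44), where 7.83% of all genes rose and 9.38% fell. Their summed level was 12840.0 to 15093 CPM with LA and 10551 to 11907 CPM with vehicle. Col3a1 made up most of that sum, and the lowest of the 9, Lum, averaged 6.55 CPM over the libraries. Thy1 had no row under that symbol in the count table. Without the 2 libraries that stood apart 7 of the 9 rose as well, while Col1a1 (log2 fold change -0.10, adjusted p = 0.746) and Col1a2 (0.092, adjusted p = 0.469) did not pass. The part of the fibroblast markers in the lower myosin levels was not tested. At day 2, 0 of the 9 passed with LA in edgeR (2 at an unadjusted p under 0.05, as were 3833 of the 12994 genes tested). Their summed level was 8756 to 9808 CPM with LA and 8538 to 9836 CPM with vehicle. Of the undifferentiated and reserve cell markers 3 rose and 3 fell of 9 with LA at day 6, with sums of 498 to 518 CPM with LA and 517 to 543 CPM with vehicle. Of 10 proliferation markers 0 passed in edgeR and 1 had an unadjusted p under 0.05 (477 to 613 CPM with LA and 432 to 509.8 CPM with vehicle). With LA at day 6, 3683 of the 12994 genes tested had an unadjusted p under 0.05. All 3 adipocyte markers tested, Lpl, Cebpa and Pparg, rose (sum 58.5 to 76.9 CPM with LA and 25.2 to 30.8 CPM with vehicle). The other 6 of that list, Fabp4, Adipoq, Plin1, Cidec, Cfd and Retn, had no row under these symbols in the count table. Of 5 tested smooth muscle markers 0 passed in edgeR and 2 had an unadjusted p under 0.05, and of 4 tested heart markers 2 fell, 1 of them Myh6. Without the 2 libraries that stood apart, 1 of the 4 heart markers fell, and Myh6 was lost (adjusted p = 0.0607).

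Other myosin heavy chain genes behaved in their own ways. Myh7b, a slow-type relative, averaged 31.02 ± 4.12 CPM with LA, 36.9 ± 4.06 CPM with ANGPTL4 and 43.7 ± 4.11 CPM with vehicle at day 6 and fell with LA (log2 fold change -0.49, SE 0.0990, adjusted p = 6.36e-04). Its LA effect was lower at day 6 than at day 2 (log2 fold change -0.66, SE 0.137, adjusted p = 0.00125). The non-muscle Myh9 (log2 fold change -0.21, SE 0.0602, adjusted p = 0.0202) and Myh10 (log2 fold change -0.19, SE 0.0532, adjusted p = 0.0138) fell with LA at day 2, but neither passed without the 2 libraries that stood apart (adjusted p = 0.101 for Myh9 and 0.0683 for Myh10). At day 6 they were at 0.0095 ± 0.0602 and 0.026 ± 0.0543 (log2 ± SE). Myh14, also non-muscle, averaged 3.52 ± 0.712 CPM at day 6 and 0.486 ± 0.124 CPM at day 2 with vehicle and rose (log2 fold change 2.84, SE 0.253, adjusted p = 7.19e-11). Myh13, the extraocular gene next to Myh8 in the cluster, had means of 0.506 CPM (ANGPTL4, day 2) to 1.10 CPM (vehicle, day 6).

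Patterns across the 24 libraries were described by Pearson r of log2 CPM, which day dominates and which share library scaling. Myh1, Myh4, Myh8 and Myh2 followed each other with r of 0.964 to 0.986. After group means were removed, r was 0.925 for Myh8 with Myh1, 0.784 for Myh1 with Myh4 and 0.421 to 0.458 for Myh2 with the other 3. Myh3 had r of -0.49 to -0.33 with these 4 and 0.622 with Myh7 and 0.655 with Myh6. With group means removed, the r of Myh3 was above 0 with each of these 4. It was then 0.628 with Myh1, 0.482 with Myh8, 0.306 with Myh4 and 0.0531 with Myh2. With Myh7 it was 0.519, and with Myh6 0.142. Among 10266 genes with at least 5 CPM on average, the most similar to Myh4 were Mef2c (r = 0.990), Txlnb (0.990) and Ppp1r3a (0.984). Those most similar to Myh1 were Camk2b (0.990), Mef2c (0.990) and Tbx15 (0.988), and those to Myh8 were Mef2c (0.981), Txlnb (0.979) and Limch1 (0.977). Genes near to Myh2 included Adprhl1 (0.990) and Hspb7 (0.987). Myh3 was nearest to Cemip (0.913), Otog (0.889) and Mef2a (0.888), Myh7 to Rptor (0.832), Pmaip1 (0.830) and Dag1 (0.828), and Myh6 to Kri1 (0.822), Ankrd2 (0.795) and 2310061I04Rik (0.783).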

How the data were processed

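The authors deposited raw counts, whole numbers per gene symbol, of 24 libraries made with the QuantSeq 3′ kit from RNA whose integrity number exceeded 7, per the labels' protocols. Trimmomatic, STAR 2.7.1a, HTSeq 0.9.1, DESeq2, DESeq and mm39 were named, per the submitters' processing notes, without order or settings. The deposited table had been filtered by a rule not given in the sources used here, and the lowest gene total was 51 counts. Groups came from sample titles. Day 2 and day 6 were each sampled with LA, ANGPTL4 and vehicle, 4 libraries a group.

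Counts were filtered with filterByExpr (1699 of 14693 genes removed) and scaled by TMM in edgeR 4.0.16 (R 4.3.3). One model of 6 group means was fitted with the robust quasi-likelihood method (18 residual degrees of freedom, common biological coefficient of variation 6.51%). P-values were adjusted by Benjamini-Hochberg over all 12994 genes, with a threshold of 0.05. Every adjusted p comes from this test unless another is named, and SE was taken from the fold change and its F statistic. CPM, counts per 1000000, used TMM-scaled totals. Ratios had 0.5 counts added (0.1 and 1 as alternatives). Within groups, libraries correlated at r of 0.986 to 0.997, and no pair agreed within sampling noise.

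The 7 myosin genes, the 12 lists and the tests were chosen with earlier results of these data known. Named genes were the 7, Myod1, Myog and Mef2c, the called list members with the largest absolute fold change (up to 3 a list and comparison) and the 3 genes most similar to each of the 7. Others were named after their values were seen, and some genes the rule names are not reported here.

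Alternatives were DESeq2 size factors, library totals alone, no low-count filter, 5 CPM in at least 4 libraries, DESeq2 1.42.0, limma-voom (limma 3.58.1), only the compared groups, the replicate number as a block, leaving out the 2 libraries that stood apart, and leaving out each compared library. The pipeline was tested on simulated data. Promoters were RefSeq's (GRCm38.p6). Transcript ends came from GENCODE M21. No gene coordinates of mm39 were used here.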

Additional observations from a re-analysis of the deposited data

Results flagged for a closer look

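Of 42 sets of 4 libraries (7 genes in 6 groups), 2 held a library whose gap to the others was large for the set's range, where chance gives about 1 in 20. Myh4 stood at 215.7 CPM in vehicle replicate 2 of day 2, while the other 3 vehicle libraries were at 252 to 255 CPM. Myh7 stood at 308 CPM in ANGPTL4 replicate 4 of day 2, while the other 3 were at 371 to 382 CPM. That same ANGPTL4 library was also the lowest of its group for Myh3, Myh8, Myh1, Myh4 and Myh6. On the first principal component of all genes it stood at -28.4, and the other 3 of its group at -19.9 to -18.1. On the second it stood at -4.61, and the other 3 at -19.7 to -15.2.

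The effect of LA differed between day 6 and day 2 in the test of the interaction for Myh3 (-0.26 on the log2 scale), Myh2 (-0.54) and Myh1 (-0.33). For Myh3 and Myh1 the LA effect was below 0 on both days. For Myh2 it was -0.35 at day 6 and 0.19 at day 2.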

How the results depend on the processing

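Results here are counts of the 7 genes that passed, and each gene's log2 fold change or ratio. For log2 fold changes, under the alternatives other than leaving out 1 library, 650 values kept direction and side of the threshold, 16 lost and 19 gained a call and 8 changed sign. With 1 library left out these were 631, 67, 8 and 22. The LA count at day 2 (3 of 7) was 1 without the libraries that stood apart. The ANGPTL4 count at day 2 (1 of 7) was 2 with DESeq2 size factors, the 5 CPM filter, DESeq2, limma-voom or the replicate block, and 0 with library totals alone. LA against ANGPTL4 at day 2 (0) gave 1 in DESeq2. The LA interaction count (3) was 1 without the libraries that stood apart, and the ANGPTL4 one (0) was 1 with the compared groups alone. The cause was not tested. With 1 library left out, counts ranged over 1 to 4 for LA at day 2, 3 to 5 for LA at day 6, 0 to 2 for ANGPTL4 at day 2, 0 to 0 for ANGPTL4 at day 6, 0 to 1 and 4 to 5 for LA against ANGPTL4 at days 2 and 6, 0 to 3 for the LA interaction and 0 to 0 for the ANGPTL4 one. For day 6 against day 2 they were 5 with vehicle, 6 with LA and 4 to 5 with ANGPTL4.

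The Myh8 LA interaction, near 0 at -0.0011, changed sign with DESeq2 size factors (0.020), library totals (0.0051), no filter (0.0032), the 5 CPM filter (0.010), DESeq2 (0.020), limma-voom (0.013), the compared groups alone (0.017) and the replicate block (0.014). Values that changed sign with 1 library left out were all uncalled. Their log2 ranges were -0.0499 to 0.113 for that interaction, -0.188 to 0.0173 for Myh6 with LA at day 2, -0.00484 to 0.139 for Myh8 and -0.0062 to 0.134 for Myh7 with ANGPTL4 at day 6. They were -0.0802 to 0.111 for Myh8 and -0.0667 to 0.0835 for Myh1 in LA against ANGPTL4 at day 2, -0.0168 to 0.126 for Myh7 by day with vehicle and -0.00366 to 0.115 for the Myh3 ANGPTL4 interaction. For ratios to Myh3 they were -0.0663 to 0.0102 (Myh1) and -0.0299 to 0.269 (Myh6) with LA at day 2, -0.0119 to 0.0454 (Myh7) with ANGPTL4 at day 2, -0.141 to 0.136 (Myh6) by day with vehicle and -0.0955 to 0.0749 (Myh7) with LA at day 6.

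Same-numbered libraries did not deviate together: at most 2 of 4 pairs had r over 0.1, so numbers were not taken as pairs. The replicate block changed the calls of Myh1 (added with LA and with ANGPTL4 at day 2) and Myh7 (added, lower by day with LA), and no other call of the 7 genes. Over all genes, LA at day 2 gave 1961 calls, but 422 with the compared groups alone and 590 without the libraries that stood apart. ANGPTL4 gave 1276 at day 2, but 685 with the compared groups alone, and 3 at day 6, but 87 in DESeq2, 83 with the compared groups alone, 10 without the libraries that stood apart, 2 in limma-voom, 1 with either other scaling and 0 with the block. LA against ANGPTL4 at day 2 gave 12, but 35 in DESeq2, 30 in limma-voom, 236 without the libraries that stood apart, 6 with the compared groups alone and 8 with the block. The ANGPTL4 interaction gave 36, but 56 with DESeq2 size factors, 161 with totals alone, 64 with the 5 CPM filter, 381 in DESeq2, 1 in limma-voom, 60 without the libraries that stood apart and 0 with the block. Scaling by totals alone put the share of higher calls at 68.2% against 54.8% (LA, day 2), 59.1% against 45.5% (LA, day 6), 62.9% against 47.4% (LA against ANGPTL4, day 6), 38.3% against 53.1% (by day with ANGPTL4) and 54.2% against 39.3% (ANGPTL4, day 2), which was 27.1% with DESeq2 size factors. Depth limits Myh6 and Myh2 most.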

Other observations

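Myhas, an antisense RNA of the fast myosin locus, was looked at after the values of the 7 genes were seen. It averaged 0.925 ± 0.182 CPM with LA, 1.38 ± 0.237 CPM with ANGPTL4 and 1.29 ± 0.443 CPM with vehicle at day 6 (mean ± SD, n = 4 each). At day 2 it averaged 0.628 ± 0.0393 CPM with LA, 0.536 ± 0.255 CPM with ANGPTL4 and 0.522 ± 0.279 CPM with vehicle. It rose by day with ANGPTL4 (log2 fold change 1.29, SE 0.351, adjusted p = 0.00322) and with vehicle (log2 fold change 1.36, SE 0.357, adjusted p = 0.00232), and did not pass with LA (log2 fold change 0.59, SE 0.332, adjusted p = 0.147). The strand setting of the counting is not given in the sources used here, so its reads and those of the genes it overlaps cannot be told apart.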
